A study of Homo sapiens with 4 samples.

Results

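Small structured noncoding RNAs were examined in T47D, a human ER+ breast ductal carcinoma cell line, after knockdown of ferredoxin reductase (FDXR). Genes were taken by their symbols in the annotation of the array, for H/ACA box small nucleolar RNAs (SNORA), small Cajal body-specific RNAs (SCARNA), spliceosomal and other U RNAs (RNU), Y RNAs (RNY), vault RNAs (VTRNA) and snaR RNAs (SNAR). The symbols gave 35 genes of 14679 named genes, with 23 SCARNA, 8 SNAR and 4 VTRNA genes on 41 of the 38598 probes. No named probe carried a SNORA, RNU or RNY symbol, so these classes were not analysed here and the set consists of scaRNAs, snaR RNAs and vault RNAs. All 35 genes were matched to RefSeq.

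Cells were infected with virus encoding FDXR sh434, a single hairpin against FDXR mRNA, or shControl, and cultured in RPMI-1640 with serum. Total RNA of 2 samples per condition, labelled as biological replicates, was measured on 4 Affymetrix arrays. The virus is a retrovirus in the labels and a lentivirus in the study's methods, and the source names of 3 arrays read T48D, T49D and T50D in place of T47D, while the growth protocol of every array names T47D. No probe is annotated as FDXR, and its depletion was therefore not analysed here. Luminal markers ranged in mean log2 signal from 11.17 for GATA3, 11.08 for KRT18 and 7.48 for ESR1 to 6.57 for TFF1 and 5.82 for TFF3. Of the basal or mesenchymal markers, KRT5 was at 3.32, ZEB1 at 3.37, KRT14 at 4.49 and VIM at 5.08. The median log2 signal of an array was 4.76 to 4.78, and across probes the arrays correlated at 0.991 or more within a condition and at 0.987 to 0.988 between conditions.

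scaRNAs reside in Cajal bodies, where they guide the chemical modification of spliceosomal snRNAs. Those with C and D boxes direct 2′-O-methylation, those with H and ACA boxes direct pseudouridylation, and a few carry both kinds of box. Most are processed from introns of host genes. snaR RNAs are transcripts of RNA polymerase III that occur in African great apes and humans and are predicted to fold into a hairpin. Vault RNAs, also made by RNA polymerase III, are named after the vault, a large cytoplasmic ribonucleoprotein particle. Genes were put in this class by their VTRNA symbol, which does not show that each RNA is a component of the particle.

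In FDXR sh434 cells, 5 snaR RNAs fell and 2 C/D box scaRNAs rose at an adjusted p under 0.05 (limma, Benjamini-Hochberg over all probes). The remaining 28 genes did not pass. Among all probes, 0.298% were called higher and 0.402% lower by the same rule. The median log2 fold change of the 35 genes was -0.39, against 0.004 over all probes, with 25 negative and 10 positive values. When limma let the spread between arrays follow the signal, with robust estimation, 6 of the genes were higher and 12 lower, while 5.02% of all probes were higher and 3.41% lower. Both FDXR sh434 arrays were below both shControl arrays for 20 of the genes and above them for 10, which held for 23.1% and 25.6% of all probes. Each array measured a whole culture, so less RNA per cell and fewer cells with the RNA cannot be told apart.

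**Figure D1:**
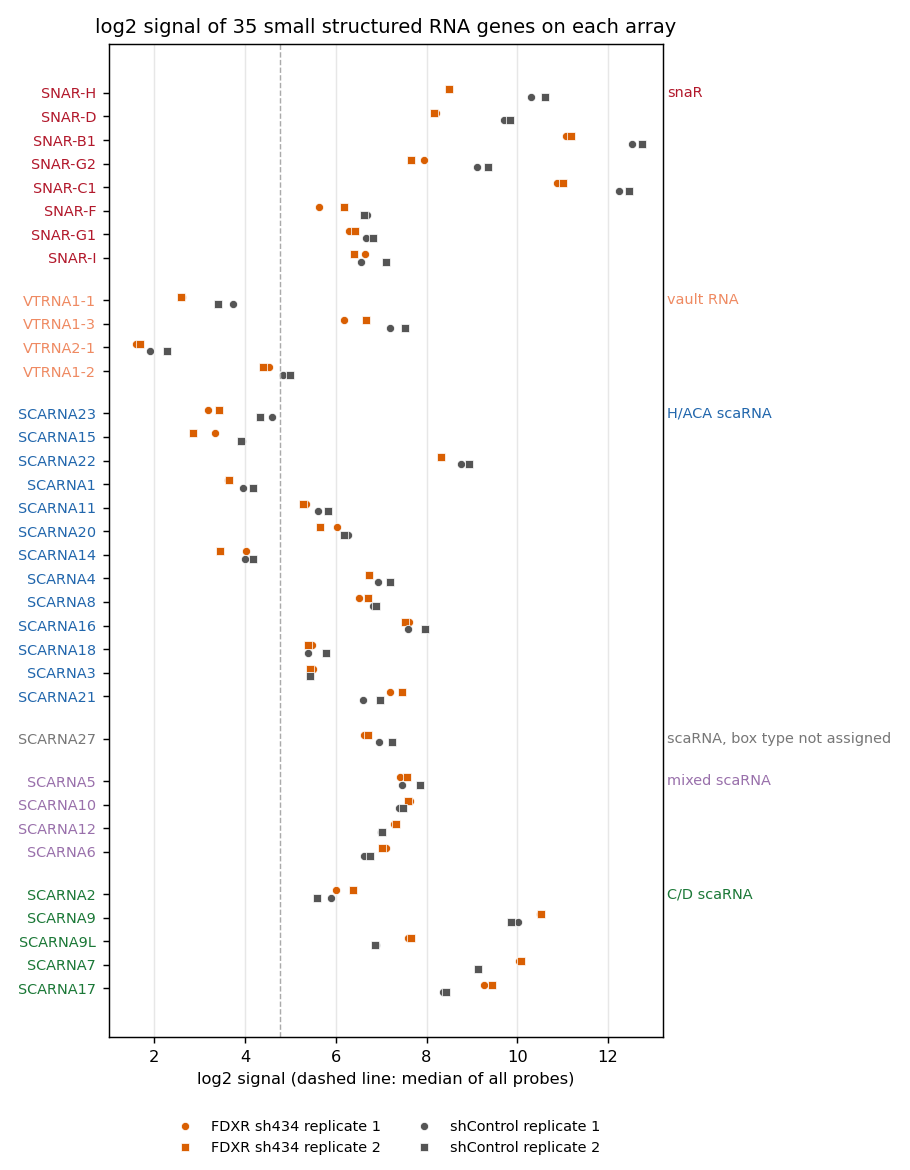
log2 signal (x axis) of the 35 genes on the 2 FDXR sh434 arrays (orange) and the 2 shControl arrays (grey), grouped by class, with circles for replicate 1 and squares for replicate 2. The orange points of most snaR and all vault RNAs lie left of the grey points, those of the 5 C/D box scaRNAs lie right of them, and the dashed line marks the median of all probes at 4.76.

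The snaR genes gave the largest decreases of the set. RefSeq windows of neighbouring genes held the sequence of 2 of them, and both are shown because these related family members had unlike values, given below their sequences. SNAR-G1 (chr19:49037020-49037145, plus strand, 126 of its 128 bases) and SNAR-G2 (chr19:49031669-49031787, minus strand, all 119 bases) lie upstream of CGB1 and CGB2, genes of the chorionic gonadotropin beta family. They are given on GRCh38.p14 on the strand that ends in a run of T, which is opposite to the neighbouring CGB gene, and capitals mark positions at which the pair differ or do not align.
SNAR-G1: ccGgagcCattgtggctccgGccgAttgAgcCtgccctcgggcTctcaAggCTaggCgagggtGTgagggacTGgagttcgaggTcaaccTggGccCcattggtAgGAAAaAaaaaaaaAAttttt
SNAR-G2: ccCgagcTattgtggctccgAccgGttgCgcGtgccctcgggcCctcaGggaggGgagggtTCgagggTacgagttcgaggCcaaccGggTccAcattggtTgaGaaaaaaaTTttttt
Of 118 aligned positions, 99 were identical (83.9%). The letters GTTCGANNC, which resemble the B box of internal RNA polymerase III promoters, occurred once in SNAR-G2 and not in the bases of SNAR-G1. At the aligned place SNAR-G1 differs from this match only in its last letter, a T in place of C. It is therefore not shown to lack a B box, and promoter activity was not tested. Of 35116 RefSeq promoter windows, 0.345% held the letters on either strand in their first 119 bases.

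SNAR-H had the largest decrease. Its log2 signal was 8.49 and 8.50 in FDXR sh434 cells, against 10.31 and 10.62 in shControl cells, a 3.92-fold lower level (log2 fold change -1.97, standard error 0.137, adjusted p = 0.0205 from limma). Only 8 of all probes had a lower log2 fold change. SNAR-D measured 8.21 and 8.15 in FDXR sh434 cells, against 9.70 and 9.84 in shControl cells (log2 fold change -1.58, standard error 0.11, adjusted p = 0.0205). In both genes the knockdown arrays were close to each other and more than 1 log2 unit below either control array.

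The brightest members were SNAR-B1 and SNAR-C1, whose mean signals lay at the 99.8 and 99.7 percentiles of all probes. SNAR-B1 was at 11.07 and 11.18 in FDXR sh434 cells and at 12.52 and 12.75 in shControl cells, a 2.85-fold lower level (log2 fold change -1.51, standard error 0.128, adjusted p = 0.0252). SNAR-C1 was at 10.87 and 11.01 in FDXR sh434 cells and at 12.24 and 12.45 in shControl cells, a 2.65-fold lower level (log2 fold change -1.41, standard error 0.125, adjusted p = 0.0258). Neither gene had overlapping conditions. SNAR-B1 had 3 probes and SNAR-C1 had 5, and the log2 fold change of their other probes was -1.48 for SNAR-B1 and -1.41 to -1.49 for SNAR-C1. Several of these probes carry the same values on all arrays, and 2 rows without a gene symbol equal the brightest SNAR-B1 row, so the number of rows does not count independent measurements and signal cannot be assigned to a single gene copy.

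SNAR-G2 was at 7.94 and 7.67 in FDXR sh434 cells and at 9.11 and 9.36 in shControl cells, a 2.7-fold lower level (log2 fold change -1.43, standard error 0.15, adjusted p = 0.0334 from limma). SNAR-G1, whose sequence stands beside it above, measured 6.30 and 6.42 in FDXR sh434 cells, against 6.67 and 6.82 in shControl cells, and its log2 fold change was -0.39 (adjusted p = 0.197, standard error 0.117). Its conditions did not overlap, but it passed neither limma fit (adjusted p = 0.0545 with the signal-dependent spread), and the difference between SNAR-G2 and SNAR-G1 was not tested. SNAR-F had 5.64 and 6.18 in FDXR sh434 cells, against 6.70 and 6.61 in shControl cells (log2 fold change -0.74, adjusted p = 0.153), and passed with the signal-dependent spread (adjusted p = 0.0222). SNAR-I had 6.65 and 6.41 in FDXR sh434 cells, against 6.55 and 7.10 in shControl cells, and was the snaR gene whose conditions overlapped (log2 fold change -0.30, adjusted p = 0.527). Both FDXR sh434 arrays were below both shControl arrays for the other 7, 87.5% of the family, against 23.1% of all probes. The log2 fold change was negative for all 8 snaR genes, their median was -1.42, and the 3 that did not pass were the 3 dimmest of the family. Because the genes are related in sequence, their signals may share transcripts and were not separated. The 8 values, and the 5 that passed, are therefore not independent measurements of separate RNAs. With any single array left out, the log2 fold change was -2.127 to -1.818 for SNAR-H and -1.653 to -1.515 for SNAR-D. It was -1.629 to -1.393 for SNAR-B1, -1.566 to -1.296 for SNAR-G2 and -1.511 to -1.301 for SNAR-C1. Such fits leave 1 array in a condition, and whether the 5 genes passed in them depended on the fit.

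All 4 vault RNAs had negative log2 fold changes with no overlap between conditions, which held for 23.1% of all probes. None of the 4 passed in limma without the trend. VTRNA1-3, the brightest, had 6.18 and 6.66 in FDXR sh434 cells, against 7.20 and 7.52 in shControl cells (log2 fold change -0.94, standard error 0.204, adjusted p = 0.115). VTRNA1-1, which binds the autophagy receptor p62, had 2.60 and 2.59 in FDXR sh434 cells, against 3.74 and 3.40 in shControl cells (log2 fold change -0.97, standard error 0.143, adjusted p = 0.0598). These were the 2 vault RNAs that passed with the signal-dependent spread, with adjusted p = 0.0076 for VTRNA1-3 and 0.0112 for VTRNA1-1. VTRNA1-1 was on the dim side of the array, at the 19.9 percentile of mean signal, where the spread between arrays was larger (median residual SD 0.162 in the lowest quartile of signal and 0.0728 in the highest). VTRNA1-2 had 4.52 and 4.39 in FDXR sh434 cells, against 4.85 and 4.98 in shControl cells, and did not pass (log2 fold change -0.46, adjusted p = 0.144). VTRNA2-1, or nc886, which binds and inhibits the kinase PKR, had 1.59 and 1.68 in FDXR sh434 cells and 1.91 and 2.28 in shControl cells. At the 5.05 percentile of mean signal it was the dimmest member, and it passed neither limma fit (log2 fold change -0.46, adjusted p = 0.225).

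The start of VTRNA1-1 (chr5:140711236-140711325, plus strand, GRCh38.p14) is shown beside that of SCARNA17 (chr18:49813983-49814072, plus strand, GRCh38.p14). They were the only other members for which RefSeq windows held sequence. Their log2 fold changes had opposite signs, and a relation of sequence to change was not tested. Each line holds 40 bases before the start in lower case and the first 50 bases of the RNA in capitals.
VTRNA1-1: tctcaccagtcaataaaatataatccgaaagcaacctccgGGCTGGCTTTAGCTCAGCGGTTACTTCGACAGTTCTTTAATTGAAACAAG
SCARNA17: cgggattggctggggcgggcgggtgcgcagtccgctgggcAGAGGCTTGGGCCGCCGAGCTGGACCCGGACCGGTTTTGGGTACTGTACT
TATAA occurred once in the 40 bases before VTRNA1-1 and not in those before SCARNA17, on either strand, and 5.48% of RefSeq promoter windows held it in these bases. The first 50 bases had a GC content of 44% in VTRNA1-1 and 64% in SCARNA17.

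All 5 C/D box scaRNAs had a positive log2 fold change with no overlap between conditions, which held for 25.6% of all probes. SCARNA17, or U91, rose to 9.26 and 9.44 in FDXR sh434 cells, against 8.37 and 8.44 in shControl cells, a 1.93-fold higher level (log2 fold change 0.95, standard error 0.117, adjusted p = 0.0473 from limma). SCARNA7, or U90, rose to 10.04 and 10.09 in FDXR sh434 cells, against 9.14 and 9.13 in shControl cells, a 1.9-fold higher level (log2 fold change 0.93, standard error 0.101, adjusted p = 0.0376). Replicates of SCARNA7 lay close together in both conditions. Of all probes, 0.332% had a higher log2 fold change than SCARNA17 and 0.365% than SCARNA7. The SCARNA17 log2 fold change lay near the threshold, with an adjusted p of 0.0552 after quantile normalization and of 0.0504 with repeated rows counted once.

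SCARNA9, a guide of U2 snRNA modification and the brightest scaRNA, had 10.49 and 10.52 in FDXR sh434 cells, against 10.02 and 9.86 in shControl cells (log2 fold change 0.56, standard error 0.112, adjusted p = 0.0987). SCARNA9L, its copy on chromosome X, had 7.59 and 7.66 in FDXR sh434 cells, against 6.88 and 6.87 in shControl cells (log2 fold change 0.75, standard error 0.103, adjusted p = 0.0537). The signals of this pair may share transcripts and were not separated. Both genes passed with the signal-dependent spread, with adjusted p = 0.000806 for SCARNA9 and 0.000741 for SCARNA9L. SCARNA2, a U2 guide with a promoter of its own, had 6.01 and 6.38 in FDXR sh434 cells, against 5.90 and 5.58 in shControl cells, and passed neither fit (log2 fold change 0.46, adjusted p = 0.281). The median log2 fold change of the class was 0.75.

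The 4 scaRNAs with both kinds of box had log2 fold changes of 0.38 for SCARNA6, 0.31 for SCARNA12, 0.18 for SCARNA10, the U5 guide known as U85, and -0.16 for SCARNA5. None passed in limma without the trend, and SCARNA6 passed with the signal-dependent spread (adjusted p = 0.0415). Its arrays were at 7.10 and 7.03 in FDXR sh434 cells and at 6.62 and 6.76 in shControl cells, without overlap. For SCARNA5 the conditions overlapped, with 7.42 and 7.58 in FDXR sh434 cells and 7.45 and 7.86 in shControl cells.

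None of the 13 H/ACA box scaRNAs passed in limma without the trend. Their log2 fold change was negative in 11 and positive in 2, with a median of -0.36. The conditions did not overlap in 8 of the negative genes, 61.5% of the class, against 23.1% of all probes. Nor did the conditions overlap in either positive gene, 15.4% of the class, against 25.6% of all probes. With the signal-dependent spread, SCARNA23, SCARNA15 and SCARNA22 were lower and SCARNA21 was higher. SCARNA22, or ACA11, the brightest of the class, had 8.32 and 8.33 in FDXR sh434 cells, against 8.77 and 8.94 in shControl cells (log2 fold change -0.53, standard error 0.113, adjusted p = 0.112, and 0.00287 with the signal-dependent spread). SCARNA23 had 3.19 and 3.42 in FDXR sh434 cells, against 4.60 and 4.32 in shControl cells, the largest decrease of a scaRNA, but below the median signal in every array (log2 fold change -1.16, adjusted p = 0.0512, and 0.00407 with the signal-dependent spread). SCARNA15 was dim as well, at 3.33 and 2.85 in FDXR sh434 cells and 3.94 and 3.92 in shControl cells (log2 fold change -0.84, adjusted p = 0.11).

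SCARNA21 stood on the other side of the class. It had 7.19 and 7.45 in FDXR sh434 cells, against 6.61 and 6.99 in shControl cells (log2 fold change 0.53, standard error 0.172, adjusted p = 0.219, and 0.0478 with the signal-dependent spread). The remaining 9 genes passed neither fit. SCARNA1, SCARNA11, SCARNA20, SCARNA4 and SCARNA8 were lower in both FDXR sh434 arrays, with log2 fold changes of -0.43, -0.41, -0.39, -0.33 and -0.24. SCARNA14, SCARNA16 and SCARNA18 overlapped between conditions, with -0.36, -0.20 and -0.15, and SCARNA3 had 0.04. SCARNA27, to which no box type was assigned, had 6.62 and 6.70 in FDXR sh434 cells, against 6.96 and 7.23 in shControl cells, with a log2 fold change of -0.43 (adjusted p = 0.199, and 0.0433 with the signal-dependent spread).

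**Figure D2:**
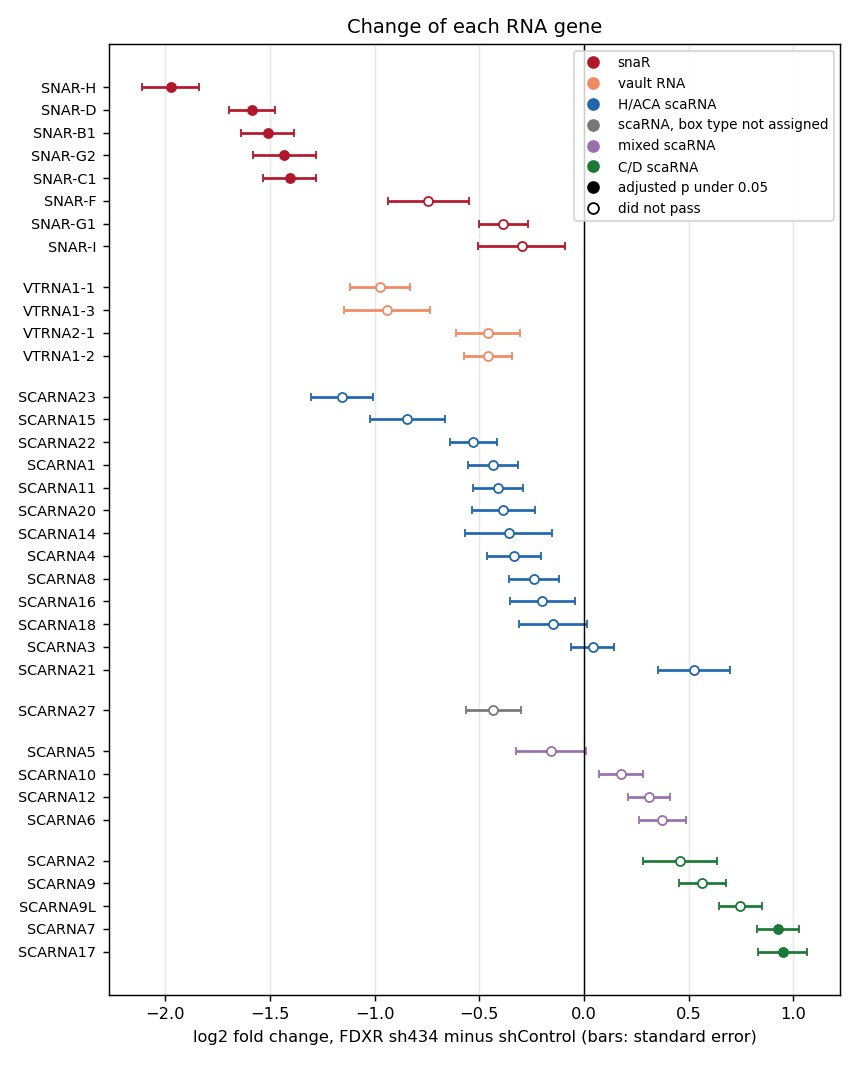
log2 fold change (x axis, FDXR sh434 minus shControl, bars are limma standard errors) of the 35 genes by class, with filled circles at an adjusted p under 0.05. Filled points are the 5 snaR RNAs between -1.97 and -1.41 and the C/D box scaRNAs SCARNA7 and SCARNA17 at 0.93 and 0.95.

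The change was set beside the length of each RNA in RefSeq, a comparison made after the values had been seen and given as a description. Of the 26 RNAs of 88 to 187 nucleotides, which comprise the snaR, vault and H/ACA box RNAs and SCARNA27, 24 lay on the negative and 2 on the positive side, and the median log2 fold change was -0.45. Of the 9 RNAs of 266 to 421 nucleotides, the scaRNAs with C/D boxes or both kinds of box, 8 lay on the positive and 1 on the negative side, and the median was 0.46. Across the 35 genes, which share arrays and in part sequence, length and log2 fold change had a Pearson correlation of 0.741 and a Spearman correlation of 0.86. Within the 23 scaRNAs these were 0.791 and 0.832, but the longer scaRNAs were also the brighter ones (Pearson 0.559 between mean signal and length). Mean signal and log2 fold change had a Pearson correlation of 0.676 and a Spearman correlation of 0.596 within the scaRNAs, and of -0.0532 and 0.0857 over all 35 genes. Within the scaRNAs, the parts of box type, length and signal cannot be told apart.

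Among the shorter RNAs the shControl replicates also differed from each other. The second shControl array was above the first for 21 of the 26, with a median difference of 0.21 on the log2 scale, against 0.01 for the 9 longer RNAs and 0.01 for all probes. Between the FDXR sh434 arrays the median difference of the shorter RNAs was 0.004. Without the second shControl array the median log2 fold change of the 35 genes was -0.27. The part of this shift in the negative values of the short RNAs was not tested.

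Other RNAs of similar size or make gave the following values. The 1069 miRNA genes with a named probe, 50 to 153 nucleotides long, had a median log2 fold change of -0.04, with 0 higher and 3 lower in limma without the trend (5.14% and 9.73% at an unadjusted p under 0.05, against 9.44% and 7.82% of all probes). The 320 of these at or above the median signal had a median of -0.02. TERC, the telomerase RNA, which carries an H/ACA domain and a Cajal body signal and is 451 nucleotides long, had 8.25 and 8.30 in FDXR sh434 cells, against 8.44 and 8.78 in shControl cells (log2 fold change -0.33, standard error 0.144, adjusted p = 0.327). RMRP, the RNA of the RNase MRP particle and an RNA polymerase III transcript of 270 nucleotides, had a log2 fold change of -0.22 (adjusted p = 0.383, and 0.0291 with the signal-dependent spread). RPPH1, the RNA of RNase P, 341 nucleotides long, had -0.06 (adjusted p = 0.828). All 3 are over 200 nucleotides long and had negative values, unlike most of the longer scaRNAs.

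**Figure D3:**
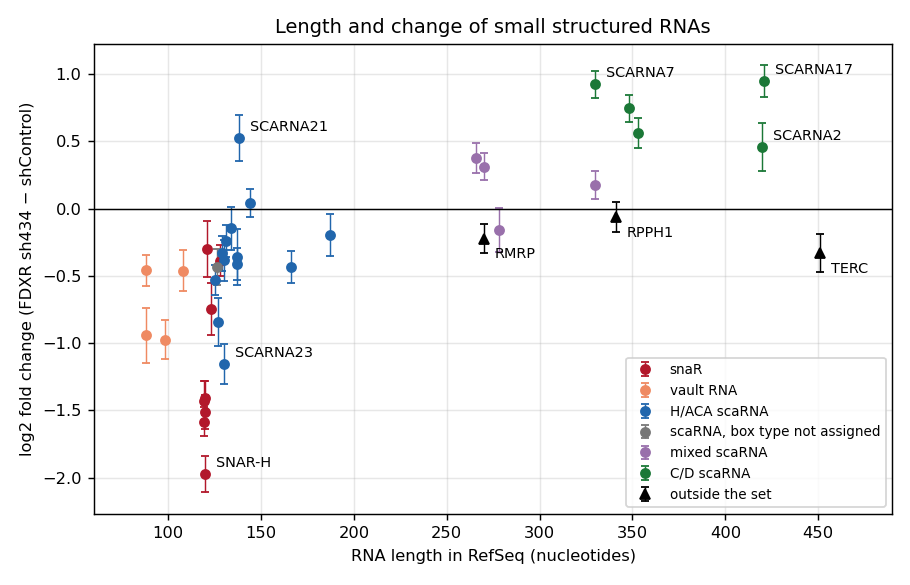
log2 fold change (y axis, FDXR sh434 minus shControl, bars are standard errors) against RNA length in nucleotides (x axis) for the 35 genes, coloured by class, and for TERC, RMRP and RPPH1 (triangles). Points under 200 nucleotides lie below 0 except SCARNA21 and SCARNA3, and scaRNAs over 200 nucleotides lie above 0 except SCARNA5.

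**Figure D4:**
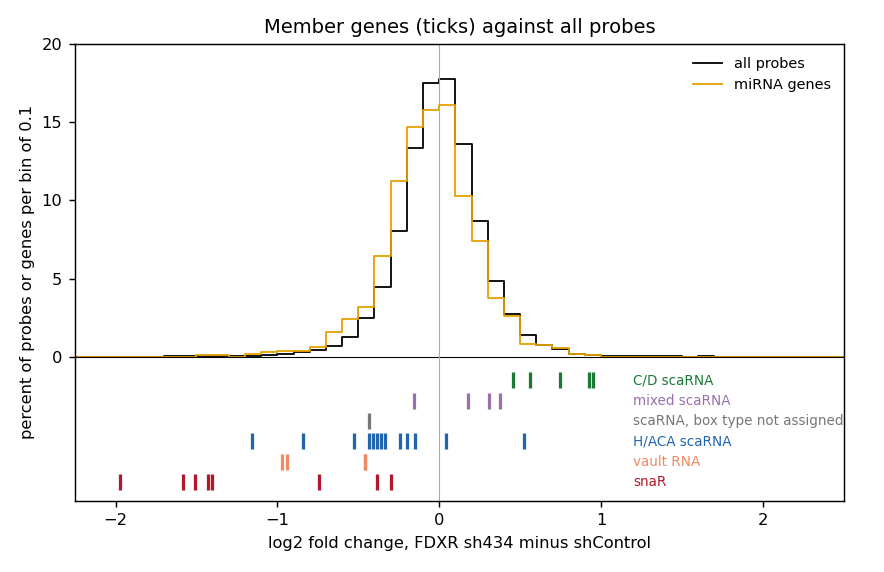
Percent of probes or genes per bin of 0.1 (y axis) by log2 fold change (x axis, FDXR sh434 minus shControl) for all 38598 probes (black) and 1069 miRNA genes (yellow), with a tick below for each of the 35 genes by class. The snaR ticks reach -1.97, the C/D box ticks lie between 0.46 and 0.95, and the curves centre near 0.

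Most scaRNAs lie within another gene, so their signal was compared with that of the gene that holds them. Of the 35 genes, 27 lie in the span of a RefSeq gene, and 12 such genes were measured, for 13 scaRNAs. The strand was not compared, so a gene that holds a scaRNA may lie on the opposite strand and not be its host. None of the 12 passed in limma without the trend, and they had a median log2 fold change of 0.07. SCARNA7 had a log2 fold change of 0.93, while KPNA4, an importin alpha, was at 8.51 and 8.51 in FDXR sh434 cells and 8.75 and 8.59 in shControl cells (log2 fold change -0.16, standard error 0.112, adjusted p = 0.529). SCARNA9 had 0.56 and CEP295, a centriole protein gene, 0.06. SCARNA22 had -0.53 and NSD2, a histone methyltransferase gene, 0.08.

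The other 10 pairs were added after their values had been seen. SCARNA21 and its gene CHD3 had log2 fold changes of 0.53 and -0.14, and SCARNA18 and TMEM167A had -0.15 and 0.42. SCARNA11 and CHD4 had -0.41 and 0.16, SCARNA14 and TIPIN -0.36 and 0.25, and SCARNA15 and FSD2 -0.84 and 0.04. FSD2 was dim, at the 38.9 percentile of mean signal. SCARNA11, SCARNA15 and SCARNA16 also lie in the spans of CHD4-AS1, SNHG21 and SEC14L1, which were not measured. Both members of a pair were negative for SCARNA4 and KHDC4, at -0.33 and -0.23, and for SCARNA16 and SNHG20, at -0.20 and -0.01. ATG16L1, whose span holds SCARNA5 at -0.16 and SCARNA6 at 0.38, had 0.18. PHB2, a prohibitin gene that holds SCARNA12, was the gene that passed with the signal-dependent spread (log2 fold change 0.37, adjusted p = 0.0156), beside 0.31 for the scaRNA. In 5 of the 13 pairs the scaRNA and the gene had the same sign, and over the pairs the log2 fold changes had a Pearson correlation of -0.177. Whether a scaRNA probe also detects the intron of the host pre-mRNA is not known, and differences between a scaRNA and its gene were not tested.

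**Figure D5:**
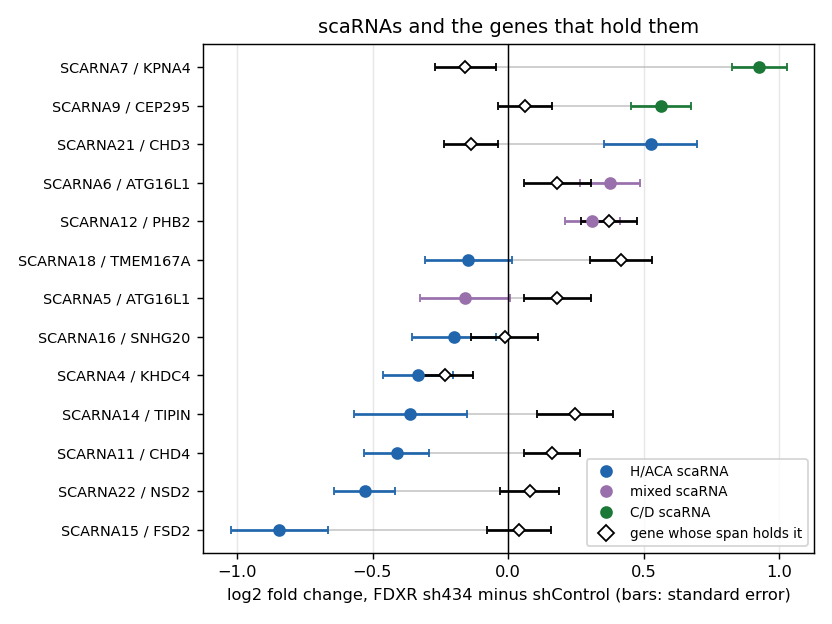
log2 fold change (x axis, FDXR sh434 minus shControl, bars are standard errors) of 13 scaRNAs (filled circles, coloured by box type) and of the gene whose span holds each (open diamonds). The filled circles range from -0.84 to 0.93 and the open diamonds from -0.23 to 0.42.

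Proteins that build, modify, transcribe or degrade these RNAs were then counted in 7 lists written from general knowledge. Of 161 genes listed, 100 had a named probe, and none passed in limma without the trend (at an unadjusted p under 0.05, 15 were higher and 4 lower, against 12.5% and 7.51% of all named genes). Their median log2 fold change was 0.06, against 0.03 over all named genes. With the signal-dependent spread 8 of the 100 were higher and 3 lower, close to the 7.42% and 3.88% of all named genes that were called by the same fit. These 11 genes were named after their values had been seen and are given as single values.

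In the list of H/ACA particle proteins and assembly factors, 11 of 13 genes were measured. NHP2, a core protein of the particle, was at 7.54 and 7.54 in FDXR sh434 cells and at 7.11 and 7.01 in shControl cells (log2 fold change 0.47, adjusted p = 0.119 from limma without the trend and 0.0077 with it). TCOF1, the nucleolar protein treacle, had a log2 fold change of 0.67, and NOLC1, or Nopp140, which binds box RNPs and concentrates scaRNPs in Cajal bodies, had -0.48, both past the threshold with the signal-dependent spread only. NOP10, another core protein and the brightest of the list, had 0.12 and overlapping conditions.

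Of the proteins of Cajal bodies, the SMN complex and telomerase, 16 of 20 were measured and none passed either fit. The brightest were STRAP, an SMN complex protein, at -0.16 and PHAX, the export adaptor of snRNAs, at 0.21. Of the genes for snRNA transcription and 3′ end processing, 15 of 28 were measured, and the Integrator subunits INTS5 and INTS3, with log2 fold changes of 0.65 and 0.57, were higher with the signal-dependent spread (adjusted p = 0.00215 and 0.00153). INTS7, another Integrator subunit, had -0.09 and overlapping conditions. Of the snRNP proteins, 29 of 43 were measured. PRPF3 of the U4/U6 snRNP and SNRPB2 of the U2 snRNP were lower with that fit, at -0.48 and -0.29, and the brightest genes of the list, SNRPD3 of the snRNP core and EFTUD2 of the U5 snRNP, had -0.03 and 0.21 and did not pass.

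Of RNA polymerase III and its factors, 9 of 25 genes were measured, with a median log2 fold change of 0.20. None was lower in either fit, and the TATA-binding protein gene TBP was higher with the signal-dependent spread, at 7.78 and 7.79 in FDXR sh434 cells and 7.39 and 7.25 in shControl cells (log2 fold change 0.46, adjusted p = 0.00877). The brightest genes of the list, POLR3C and CRCP, both subunits of the polymerase, had 0.25 and 0.06 and did not pass. Of the proteins that bind Y, vault or snaR RNAs, 6 of 14 were measured and none passed either fit, with 0.12 for YBX1 and -0.002 for SRSF2, the brightest of them. Of the nuclear RNA exosome, 14 of 18 genes were measured, and DIS3, a catalytic subunit, EXOSC1 and EXOSC2 were higher with the signal-dependent spread, with log2 fold changes of 0.57, 0.39 and 0.35. The brightest genes of this list passed neither fit. MTREX, the helicase that feeds RNA to the exosome, had -0.18 with both FDXR sh434 arrays below both shControl arrays, and EXOSC10, a nuclear exonuclease, had 0.11. The median of the list was 0.04.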

How the data were processed

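The authors deposited log2 signals of 4 arrays, 1 value per transcript cluster (probe). How probe values were summarised and normalized was not given in the sources used here. limma 3.50.3 is named in the processing notes of the submitters. No scanner values were used, so signal over background is unknown, and 2 arrays per condition limit the precision. P-values measure the spread between these samples only.

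All 38598 probes entered limma 3.58.1 (lmFit, then eBayes with no trend, run in R 4.3.3) for FDXR sh434 minus shControl, without a filter. P-values were adjusted by Benjamini-Hochberg over these probes, and 0.05 was the threshold. The fit had 2 residual and 3.45 prior degrees of freedom. The signal-dependent spread is eBayes with an intensity trend and robust estimation. The brightest probe stood for a gene, and none of the 35 genes shared its values with another. The fits were tested on simulated data.

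The members and lists were chosen with earlier results of these data known, the lists and box types were written from general knowledge, and the box types and the length split were used after values had been seen. Named genes were members past the threshold, in each class the 3 brightest, 2 highest and 2 lowest at or above the median signal, every vault RNA, and per protein list genes past the threshold and the 2 brightest; the other scaRNAs were named to account for every member. Lengths, positions and sequences came from RefSeq tables of GRCh38.p14. Host genes were to be found by span and strand, but the strand of the members was not in the tables used here, so span alone was used. Alternatives were the replicate block, quantile normalization, median centring, no dim probes, repeated rows once, mean of probes, the methods' t-test and each array left out. Other software was biopython 1.88, statmod 1.5.0, matplotlib 3.10.9 and pandas 2.3.3 with numpy 2.4.6 under Python 3.11.15.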

Additional observations from a re-analysis of the deposited data

How the results depend on the processing

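In the limma fit without a trend, 2 of the 35 RNA genes were higher and 5 lower in FDXR sh434 cells, the 2 being C/D box scaRNAs and the 5 snaR RNAs. With the signal-dependent spread these counts were 6 and 12, with 4 C/D box scaRNAs higher, 8 protein partner genes higher and 3 lower, and 1 host gene higher. An intensity trend alone, added after seeing the data, gave 7 and 12, with 4 C/D box scaRNAs, 9 and 3 partner genes and 1 host gene, and robust estimation alone left the counts at 2 and 5. Leaving out probes under the median signal gave 4 and 8, with 4 C/D box scaRNAs, 10 and 2 partner genes, 2 host genes higher and a median log2 fold change of -0.27, over fewer members tested. Quantile normalization and counting repeated rows once each left 1 gene higher, a C/D box scaRNA. The methods' t-test gave 6 and 9 genes unadjusted, with 4 C/D box scaRNAs, 20 and 6 partner genes and 4 and 2 host genes, and 0 and 0 after Benjamini-Hochberg, with 0 snaR and 0 C/D box genes. Shares over all probes, here and below, were counted for the fit without a trend, the signal-dependent spread and unadjusted p-values without 1 array. Counts of the other settings stand without such a share and are not a result about the listed genes.

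Same-numbered arrays share only a number (correlation of their deviations 0.00196). With the replicate block limma called 0 higher and 0 lower, with 0 snaR and 0 C/D box genes, and with the block and the signal-dependent spread 6 and 13, with 4 C/D box scaRNAs, 12 and 4 partner genes and 1 host gene. Without any 1 array, limma without the trend called 0 members, snaR and C/D box genes, with 16 to 25 members at an unadjusted p under 0.05 (45.7% to 71.4%, against 9.95% to 17.7% of all probes), a lowest adjusted p of 0.173 and a median log2 fold change of -0.47 to -0.27. With the signal-dependent spread, leaving out 1 array gave 4 to 6 members higher and 5 to 15 lower, 5 to 7 snaR and 4 to 5 C/D box genes, 0 to 14 partner genes higher (11 without shControl replicate 2) and 0 to 6 lower, and 0 to 1 host genes in either direction. In that fit all 7 genes past the threshold passed without any 1 array, as did 9 of the 18 that passed on all arrays.

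Of the 35 genes, 33 kept their sign without any 1 array. Without 1 array the log2 fold change was -0.351 to 0.057 for SCARNA18 and -0.362 to 0.045 for SCARNA5, both positive without shControl replicate 2. The SNRPD3 log2 fold change was -0.063 to 0.001, the SRSF2 log2 fold change -0.021 to 0.017 (0.013 without FDXR sh434 replicate 2), the SNHG20 log2 fold change -0.126 to 0.101 (0.029 without shControl replicate 2) and the FSD2 log2 fold change -0.051 to 0.129 (-0.008 without shControl replicate 2). SNRPD3 had 0.026 after quantile normalization and SRSF2 0.004 after median centring. The causes were not tested. The number of arrays and the unknown signal over background limit what can be said of dim members such as VTRNA1-1, VTRNA2-1, SCARNA23 and SCARNA15.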
